A study of Mus musculus with 11 samples.

Results

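Amacrine cell transcription factors are the 10 genes Pax6, Tfap2a, Tfap2b, Tfap2c, Ebf1, Ebf3, Nhlh2, Neurod2, Prdm13 and Meis2, of 25311 genes in the count matrix. They were chosen by name and followed over the amacrine subtypes, the other retinal classes and the 4 conditions. Retinas of 11 C57BL/6J mice of both sexes were dissociated with papain at postnatal day 10 (P10), and single cells were captured in inDrop droplets. Each mRNA molecule was counted once by its unique molecular identifier (UMI). Control mice (n = 3) received PBS, and Phase I ROP mice (n = 3), their littermates, received streptozotocin (STZ) daily from P1 to P9. STZ destroys insulin-producing beta cells, and the resulting hyperglycemia is used as a model of the early phase of retinopathy of prematurity. The remaining mice also received STZ and were nursed by dams on an ω-3 diet, enriched with DHA and EPA (n = 2), or an ω-6 diet, enriched with arachidonic acid (n = 3). These mice were littermates of each other, split into 2 cages, so that diet and cage cannot be told apart.

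Amacrine cells are the interneurons of the inner retina, and most release GABA or glycine onto bipolar, ganglion and other amacrine cells. Their many subtypes are specified by combinations of transcription factors. Pax6 is a paired-domain and homeodomain factor of retinal progenitors that stays on in amacrine, ganglion and horizontal cells. Tfap2a, Tfap2b and Tfap2c encode AP-2 factors, which are known from amacrine and horizontal cell development. Ebf1 and Ebf3 encode helix-loop-helix factors used by amacrine and ganglion cells. Nhlh2 and Neurod2 are neuronal basic helix-loop-helix factors, Prdm13 is a zinc-finger factor that acts in amacrine specification, and Meis2 is a TALE homeodomain factor.

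Of 20067 cells, 20033 had more than 300 genes and fell into 24 clusters that were named from canonical markers, with the 10 members left out of the clustering. Amacrine cells were 3286 cells in 4 clusters, 16.4% of cells and 27.9% of UMIs. The largest was a GABAergic-like cluster of 1512 cells. A second held 1345 cells, is called the Ppp1r17 cluster after one of its leading genes, and takes in several subtypes. The others were glycinergic-like (309 cells) and starburst-like (120 cells, the cholinergic amacrine type). A mouse gave 198 to 401 amacrine cells and 2565568 to 6517776 UMIs in all. Control libraries stood apart from the rest. In amacrine cells, the 7SK RNA Rn7sk was at 145 to 157 CPM (UMIs per 1000000 UMIs of the mouse and class) in control mice and 1.16 to 5.31 in Phase I ROP. Fos and 11 other dissociation-response genes summed to 142 to 226 CPM in control mice and 2226 to 2957 in Phase I ROP. Treatment and library preparation cannot be told apart in that comparison. The libraries shared 1157 of 18872 barcodes, which belonged to 2352 cells (11.7%).

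Clustering without the members still placed 4 of them, Prdm13, Ebf3, Nhlh2 and Neurod2, among the 10 leading genes of the Ppp1r17 cluster. The sequences just upstream of these 4 genes are shown for this reason. Each is RefSeq sequence of GRCm38.p6, runs 5′ to 3′ on the gene's own strand and ends at the base before the annotated gene start. Capitals mark matches to 3 motifs sought on both strands: the AP-2 motif GCCNNNGGC, the E-box CATCTG (or CAGATG) and the EBF motif, TCCC and GGGA with any 2 bases between them.
Nhlh2, chr3:102009895-102010075, plus strand: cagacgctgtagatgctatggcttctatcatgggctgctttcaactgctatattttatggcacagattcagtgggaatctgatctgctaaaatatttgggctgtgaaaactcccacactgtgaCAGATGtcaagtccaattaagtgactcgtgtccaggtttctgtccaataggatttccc
Prdm13, chr4:21685964-21686213, minus strand: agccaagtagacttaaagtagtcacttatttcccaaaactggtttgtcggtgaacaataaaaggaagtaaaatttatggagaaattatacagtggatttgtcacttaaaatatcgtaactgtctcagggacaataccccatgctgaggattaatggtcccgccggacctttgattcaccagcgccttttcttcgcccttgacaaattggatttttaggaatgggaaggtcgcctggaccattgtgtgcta
Ebf3, chr7:137314446-137314695, minus strand: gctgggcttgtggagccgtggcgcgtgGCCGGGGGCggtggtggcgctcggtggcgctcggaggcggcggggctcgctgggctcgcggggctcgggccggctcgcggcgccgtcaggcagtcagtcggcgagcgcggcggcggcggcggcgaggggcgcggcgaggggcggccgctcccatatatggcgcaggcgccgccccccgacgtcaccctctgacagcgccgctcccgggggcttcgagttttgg
Neurod2, chr11:98329649-98329895, minus strand: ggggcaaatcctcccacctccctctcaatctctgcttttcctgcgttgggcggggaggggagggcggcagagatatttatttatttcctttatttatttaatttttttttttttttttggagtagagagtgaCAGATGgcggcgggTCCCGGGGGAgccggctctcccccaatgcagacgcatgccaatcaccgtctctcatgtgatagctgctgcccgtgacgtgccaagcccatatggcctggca
Nhlh2 and Neurod2 held the E-box letters CAGATG, found in 14.4% of 32851 mouse promoters in the 250 bases before the start. Neurod2 also held TCCCGGGGGA, whose motif was in 0.8% of promoters, and Ebf3 held GCCGGGGGC, whose motif was in 13.7%. Prdm13 held none of the 3. Of the other members with a promoter entry, Pax6 held the AP-2 letters GCCAGAGGC and the rest held no match. Tfap2c was the member without an entry.

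Pax6 (chromosome 2, 105668900 to 105697364, plus strand) was high in amacrine cells and present in other inner retinal classes. Amacrine cells held 76.7% of its UMIs. Over the 11 mice, its level was 727 ± 118 CPM (mean ± SD) in the GABAergic-like cluster and 801 ± 279 CPM in the Ppp1r17 cluster, and these overlapped. Here and below, such SDs pool mice of different conditions, and clusters were not compared within a mouse. The glycinergic-like cluster had a lower mean, at 452 ± 90.4 CPM, and its range of 272 to 598 CPM overlapped both. The starburst-like cluster was at 444 ± 213 CPM (n = 7 mice). Outside amacrine cells, Pax6 was highest in Müller glia, the radial glia of the retina, at 382 ± 56.5 CPM and between 310.2 and 497 CPM in every mouse. Horizontal cells (320 CPM pooled over 30 cells) and retinal ganglion cells (271 CPM pooled over 96 cells) followed. Bipolar cells were at 41.5 ± 16.8 CPM. Rods were at a median of 21.9 CPM over mice. The RNA Pax6os1 overlaps Pax6 on the opposite strand, and the strand used in counting is not given in the sources used here.

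The AP-2 genes differed in how strictly they followed amacrine cells. Tfap2b (chromosome 1, 19208914 to 19238576, plus strand) had 93.7% of its UMIs in them. It reached 1655 ± 345 CPM (n = 11 mice) in the glycinergic-like and 1428 ± 305 CPM in the GABAergic-like cluster, which overlapped, and 409 ± 197 CPM in the Ppp1r17 cluster. Horizontal cells were at a similar level, 1543 CPM pooled over 30 cells. Rods were at 17.5 ± 14.5 CPM and Müller glia at 6.74 ± 5.21 CPM.

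Tfap2c (chromosome 2, 172549593 to 172558622, plus strand) was the most restricted member, with 96.9% of its 1011 UMIs in amacrine cells. Its level was 103 ± 45.4 CPM in the Ppp1r17 cluster and 86.0 ± 35.0 CPM in the GABAergic-like cluster, which overlapped. The glycinergic-like cluster had 0 Tfap2c UMIs in 309 cells, which allows up to 2.43 CPM, and the starburst-like cluster was at 1.95 CPM. Retinal ganglion cells also had 0 UMIs, which allows up to 2.08 CPM. These limits, taken at 3 counts, and the intervals for single sums cover counting error only.

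Tfap2a (chromosome 13, 40715302 to 40738376, minus strand) had its highest cluster mean in the GABAergic-like cluster, at 289 ± 72.8 CPM (n = 11 mice, range 123 to 357 CPM). The starburst-like cluster was at 192 ± 44.7 CPM (n = 7 mice), the Ppp1r17 cluster at 149.9 ± 52.2 CPM and the glycinergic-like cluster at 136 ± 50.9 CPM. These overlapped each other and the GABAergic-like cluster. Amacrine cells held 69.0% of its UMIs, and the rest were spread over the retina at low levels. Pooled levels in rods, cones, bipolar cells and Müller glia lay between 37.5 CPM in Müller glia and 43.5 CPM in cones. The antisense RNAs Gm47061, Gm26688 and Gm47067 overlap Tfap2a and have rows of their own, so its reads may be split or shared with them.

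Meis2 (chromosome 2, 115863064 to 116065839, minus strand) followed the GABAergic-like cluster, at 566 ± 151 CPM (n = 11 mice). It was at 37.3 ± 23.5 CPM in the Ppp1r17 cluster, from 0 to 38.2 CPM per mouse in the glycinergic-like cluster and 6.83 CPM pooled in the starburst-like cluster. Photoreceptors and bipolar cells lay between these. Meis2 was at 92.1 ± 20.8 CPM in rods, 80.0 ± 39.4 CPM in cones and 89.1 ± 33.1 CPM in bipolar cells, which overlapped. In rods it stood at 45.8 CPM or more in every mouse, above the highest glycinergic-like value.

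The EBF genes marked the Ppp1r17 cluster and retinal ganglion cells. Ebf3 (chromosome 7, 137193673 to 137314445, minus strand) was at 600.1 ± 239.8 CPM in the Ppp1r17 cluster (n = 11 mice) and 268 ± 65.7 CPM in ganglion cells (n = 4 mice with at least 10 of these cells). The GABAergic-like cluster was at 7.03 ± 6.30 CPM and the glycinergic-like cluster at 1.16 ± 3.86 CPM. Ebf1 (chromosome 11, 44617317 to 45008091, plus strand) was at 555 ± 199 CPM in the Ppp1r17 cluster and 419 ± 152 CPM in ganglion cells, and these overlapped. Ebf1 also had 71.6 ± 21.3 CPM in bipolar cells and 92.3 CPM pooled in endothelial cells, and only 53.8% of its UMIs were in amacrine cells. Antisense genes overlap both loci (Gm12158 at Ebf1, Gm45278 and Gm10578 at Ebf3).

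Nhlh2, Prdm13 and Neurod2 each took a different set of amacrine clusters. Nhlh2 (chromosome 3, 102010076 to 102015492, plus strand) was at 966 ± 278 CPM in the Ppp1r17 cluster (n = 11 mice) and 901 ± 234 CPM in the starburst-like cluster (n = 7 mice), which overlapped. It was at 108 ± 34.3 CPM in the GABAergic-like cluster. Prdm13 (chromosome 4, 21677480 to 21685963, minus strand) was at 421 ± 183 CPM in the Ppp1r17 cluster, which held 86.0% of its UMIs. The glycinergic-like and starburst-like clusters had 0 Prdm13 UMIs, which allows up to 2.43 and 2.93 CPM. Neurod2 (chromosome 11, 98325415 to 98329648, minus strand) joined the glycinergic-like cluster, at 278 ± 134 CPM, with the Ppp1r17 cluster, at 222 ± 119.8 CPM, and these overlapped. The GABAergic-like cluster was at 6.81 ± 5.61 CPM of Neurod2, below bipolar cells at 18.8 ± 12.3 CPM.

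**Figure D1:**
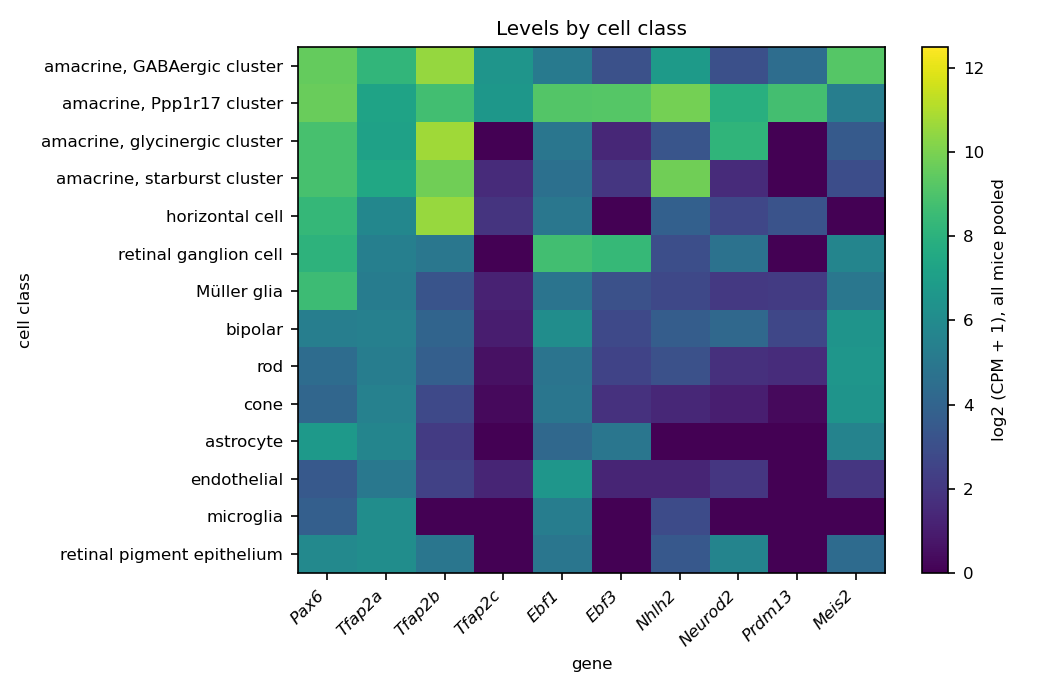
Level of each of the 10 transcription factors (columns) in the amacrine clusters and the other retinal classes (rows), as log2 of CPM plus 1, pooled over all mice. Pax6 is high in all amacrine clusters and in Müller glia, Tfap2b is high in all amacrine clusters and horizontal cells, and Prdm13 and Ebf3 are high in the Ppp1r17 cluster.

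Reclustering of amacrine cells alone, again without the members, gave 19 subclusters, named here by leading genes. In the subclusters of the Ppp1r17 cluster, the members came in different combinations. In the subcluster led by Nfix and Nfib (401 cells), Nhlh2 was at 1982 CPM, Ebf3 at 1054, Prdm13 at 805, Ebf1 at 689 and Tfap2c at 277 CPM. Tfap2b was at 18.5 CPM there, with 18 UMIs in all, close to its 12.7 CPM in rods. In the subcluster led by Mafa, Nxph2 and Lamp5 (284 cells), Tfap2b was at 1109.9 CPM, Neurod2 at 496 and Ebf3 at 53.0 CPM. Tfap2c had 0 UMIs there, which allows up to 4.18 CPM. In the subcluster led by Cldn11, Atoh8 and Ppp1r17 (197 cells), Ebf3 was at 1406 CPM and Ebf1 at 1216.5 CPM, while Tfap2b was at 22.4 CPM. The subcluster led by Adh6b, Nxph1 and Car3, with the glutamate transporter gene Slc17a8 among its leading genes (88 cells, 86 of them in the Ppp1r17 cluster), had Neurod2 at 511 CPM and Tfap2b at 1731 CPM. Prdm13 had 0 UMIs in it, which allows up to 12.7 CPM, and Ebf3 was at 8.44 CPM.

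Levels per mouse are given for the Nfix and Nfib and the Mafa subclusters. Over the 8 mice with at least 10 cells of the Nfix and Nfib subcluster, all STZ-treated, Nhlh2 ran from 1627 to 2616 CPM with a median of 1950.3. Tfap2b ran from 0 to 55.9 CPM in the same mice. In the Mafa subcluster, 9 mice, not all of them STZ-treated, had Tfap2b between 61.2 and 1748 CPM with a median of 1032. Tfap2c was 0 in each of them. The lowest Tfap2b value there lay close to the highest of the Nfix and Nfib subcluster. Control mice gave 8 of the 401 cells of the Nfix and Nfib subcluster and 13 of the 284 cells of the Mafa subcluster. A separate subcluster of 298 cells, led by Cxcr2, Gm37357 and other genes that include Rn7sk, held 278 control cells.

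Within GABAergic-like subclusters, the highest Tfap2b and the highest Tfap2c levels were in different subclusters. Tfap2b was at 4348 CPM (95% Poisson interval 4134 to 4570.3) in the subcluster led by its paralog Tfap2e and Cdkn1c (70 cells). It was at 4284 CPM (4019 to 4561) in the subcluster led by Slc35d3 and the neuropeptide gene Cartpt (53 cells). It was at 3.40 CPM in the subcluster led by Cxcl14 (41 cells) and 5.97 CPM in that led by Gbx2 (54 cells), with 1 UMI in each. The Cxcl14 subcluster had the highest Tfap2c level, 466 CPM (391 to 550.4). Other subclusters had both genes. In that led by Crybb3 and Maf (150 cells), Tfap2c was at 204 CPM and Tfap2b at 537 CPM, and in that led by Lypd6b (130 cells) they were at 129 and 309 CPM. Tfap2c was lower, at 61.8 CPM, in the Tfap2e subcluster. It was at 45.9 CPM in the subcluster led by Tacr3 (384 cells, Tfap2b at 1232 CPM) and 30.1 CPM in that led by Vip (294 cells, Tfap2b at 1356 CPM). The Gbx2 subcluster had 0 Tfap2c UMIs, and its Pax6 level of 1367 CPM was the highest of any subcluster.

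Meis2 was between 416 and 746 CPM in 8 of the 10 GABAergic-like subclusters. The other 2 were the Slc35d3 and Cartpt subcluster, with 1 Meis2 UMI (4.39 CPM), and that led by Cbfa2t3 and Pou3f3 (130 cells), at 45.3 CPM. Both of these were among the subclusters with the most Tfap2a, at 444 and 433 CPM. High Tfap2a was not limited to them, since the subcluster led by Vip (294 cells) had Tfap2a at 412 CPM and Meis2 at 668 CPM. Nhlh2, at 899 CPM in the starburst-like subcluster, was at 0 UMIs in the Slc35d3 and Cartpt subcluster, which allows up to 13.2 CPM.

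**Figure D2:**
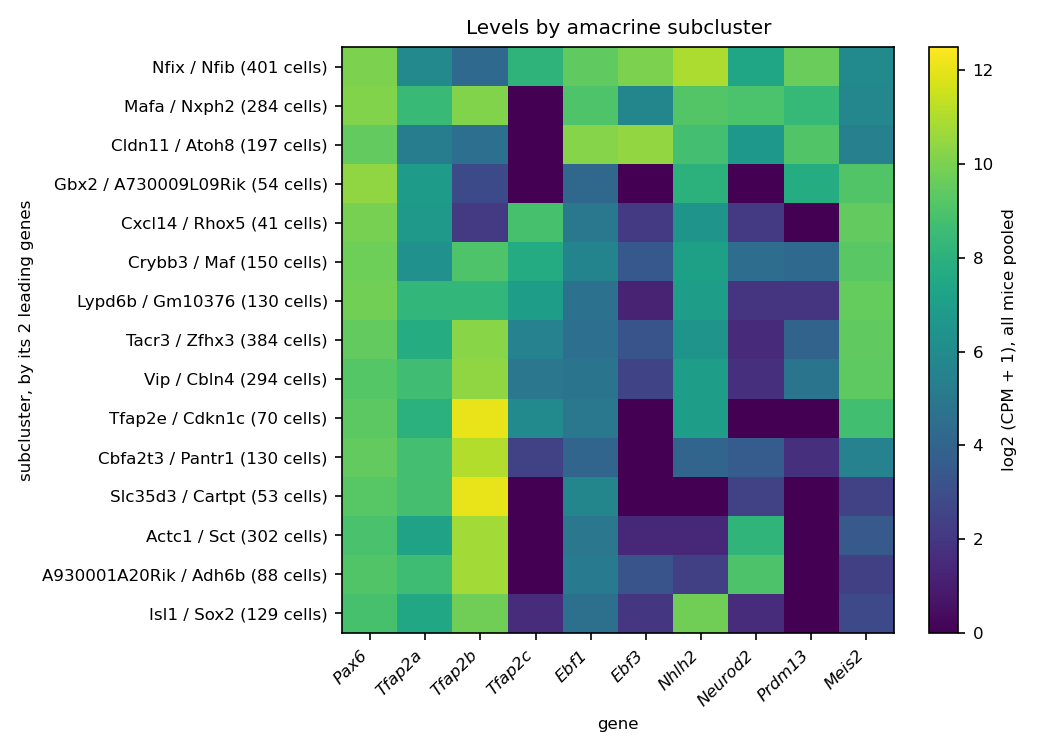
Level of each of the 10 transcription factors (columns) in 15 of the 19 amacrine subclusters (rows, named by leading genes), as log2 of CPM plus 1, pooled over all mice. Tfap2b is at 18.5 CPM in the Nfix and Nfib subcluster and 4348 CPM in the Tfap2e subcluster, and Tfap2c is at 0 in the Mafa, Cldn11, Adh6b, Gbx2 and Slc35d3 subclusters and in that led by Actc1 and Sct.

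The members' patterns were compared with each other and with all genes that reached 20 CPM, by Pearson's r over 24 units, which were retinal classes and amacrine subclusters with at least 50 cells. The units share libraries and depth, and r is given as a description. Ebf1 and Ebf3 were the most alike pair of members (r = 0.833), followed by Ebf1 with Prdm13 (r = 0.763) and Ebf3 with Prdm13 (r = 0.755). Tfap2a and Tfap2b had r = 0.731, and Tfap2c was closest to Meis2 (r = 0.642). Of 15952 other genes, those most like Ebf3 included Gpr149 (r = 0.893) and Kcnj5 (r = 0.860). Those most like Neurod2 were Lamp5 (r = 0.887), Nhlh1 (r = 0.864) and Ipcef1 (r = 0.825).

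Pax6 was nearest to Lonrf2 (r = 0.941), Srgap3 (r = 0.938) and Cacng4 (r = 0.938). Prdm13 was nearest to Ptprt (r = 0.889), Cfap58 (r = 0.806) and Lgr5 (r = 0.799), and Meis2 to Dscam (r = 0.860), a cell adhesion molecule, H2-Q7 (r = 0.843) and Syt9 (r = 0.823). Tfap2b was nearest to Gm26688 (r = 0.882), an antisense RNA at Tfap2a, then Gm28050 (r = 0.855) and the sodium leak channel gene Nalcn (r = 0.842). Tfap2a was nearest to Gm48161 (r = 0.860), Arhgap44 (r = 0.853) and Fam43b (r = 0.851). The genes nearest to Tfap2c were Kcnip2 (r = 0.795), Rhof (r = 0.777) and Filip1l (r = 0.756), and to Ebf1 Sorcs3 (r = 0.821), Kcnip4 (r = 0.807) and Lrrn1 (r = 0.780). Nhlh2 had the lowest likeness of any member, with Gm38139 (r = 0.726), Rbfox3 (r = 0.715) and Grm8 (r = 0.690).

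Phase I ROP was compared with control to ask which members differed in amacrine cells of hyperglycemic mice. UMIs were summed over the amacrine cells of each mouse, and per-mouse levels are given as CPM after TMM scaling, which sets the average gene equal between mice. In these sums, 8 of the 10 members were higher in Phase I ROP at an adjusted p under 0.05, and none was lower. Of all 11265 genes tested in the same fit, 38.9% were called and 18.1% were called higher, so a large part of the transcriptome differed between these libraries. All 10 members passed the filter on low counts in this comparison. Whether the mice of compared groups overlapped is given as a description. The share of all genes without overlap was not counted, and 3 against 3 mice cannot give an exact two-sided p under 0.1.

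Neurod2 had the largest difference. It was at 30.1, 27.8 and 18.6 CPM in the 3 control mice and at 114, 100.4 and 95.4 CPM in the 3 Phase I ROP mice. All Phase I ROP values lay above all control values, and the log2 fold change was 1.97 ± 0.23 (SE; adjusted p = 2.4e-05, edgeR quasi-likelihood test with Benjamini-Hochberg adjustment). Prdm13 was at 60.1, 57.9 and 61.0 CPM in control mice and 116, 102 and 164 CPM in Phase I ROP. These groups did not overlap, and edgeR gave a log2 fold change of 1.07 ± 0.20 (adjusted p = 0.001).

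Both EBF genes were higher. Ebf3 was at 91.3, 110.2 and 129 CPM in control mice and 183, 187 and 294 CPM in Phase I ROP, without overlap (log2 fold change 0.98 ± 0.20, edgeR adjusted p = 0.00144). Ebf1 was at 128, 90.2 and 139 CPM in control mice and 208, 157 and 237 CPM in Phase I ROP, again without overlap (log2 fold change 0.73 ± 0.19, edgeR adjusted p = 0.00765).

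The 3 AP-2 genes and Pax6 were also called higher. Tfap2c was at 43.4, 51.2 and 41.1 CPM in control mice and 59.8, 109 and 87.2 CPM in Phase I ROP (log2 fold change 0.88 ± 0.24, edgeR adjusted p = 0.00938). Tfap2a was at 188, 203 and 141 CPM and then 231, 268 and 242 CPM (0.44 ± 0.15, edgeR adjusted p = 0.0328). Tfap2b was at 923, 830.3 and 890.2 CPM and then 1118, 1304 and 1032 CPM (0.36 ± 0.13, edgeR adjusted p = 0.0378). For all of these the groups did not overlap. Pax6 was at 540.1, 472 and 626 CPM in control mice and 709, 696 and 826 CPM in Phase I ROP, without overlap (0.42 ± 0.13, edgeR adjusted p = 0.0215).

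Nhlh2 and Meis2 did not pass the test. Nhlh2 was at 331, 347 and 371 CPM in control mice and 416, 378 and 545 CPM in Phase I ROP, groups that did not overlap (log2 fold change 0.32 ± 0.14, edgeR adjusted p = 0.0822). Meis2 was at 267, 164 and 263 CPM in control mice and 235, 359 and 341 CPM in Phase I ROP, which overlapped (0.40 ± 0.19, edgeR adjusted p = 0.106).

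**Figure D3:**
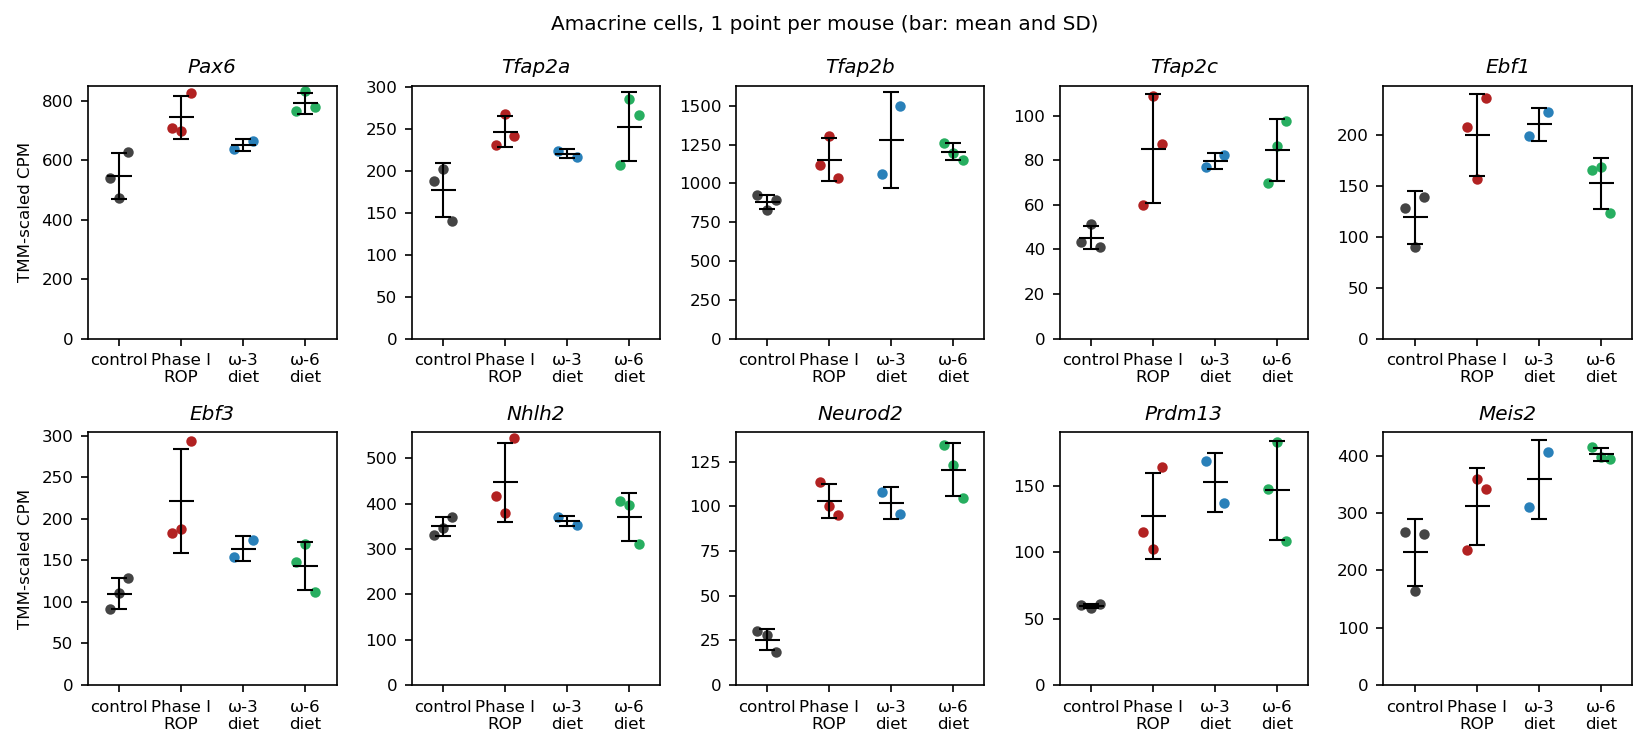
TMM-scaled CPM of each transcription factor in the amacrine cells of each mouse (points), by condition, with the mean of the condition as a bar and the SD as an error bar. Neurod2 lies between 18.6 and 30.1 CPM in the control mice and between 95.4 and 134 CPM in the mice of the other 3 conditions.

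Other measures moved with the same contrast. Sums over gene lists are CPM without TMM scaling. In amacrine cells the 12 rod genes summed to 379 to 471 CPM in control mice and 897 to 1482 CPM in Phase I ROP. All 10 dissociation-response genes tested were higher in Phase I ROP, and the 4 RNAs used as signs of RNA quality (Rn7sk, mt-Rnr1, mt-Rnr2 and Malat1) were lower. Those 4 RNAs summed to 40227 to 55189 CPM in control mice and 7121 to 14234 CPM in Phase I ROP. The list of 21 amacrine markers summed to 3838 to 4426 CPM in control mice and 5118 to 6195 CPM in Phase I ROP. Marker sums of Müller glia (432 to 478 against 512 to 663 CPM) and ganglion cells (105 to 133 against 151 to 226 CPM) were higher in Phase I ROP. Those of bipolar cells (248 to 422 against 377 to 536 CPM) were higher with overlap, and those of horizontal cells overlapped (249.6 to 314 against 289 to 319 CPM). TMM factors in amacrine cells were 0.855 to 0.883 in control mice and 1.07 to 1.11 in Phase I ROP. TMM scaling therefore raises the control sums and lowers the Phase I ROP sums. The sums of Müller glia, ganglion cell and amacrine markers then overlap between the groups. None of the 11 rod markers was at 0 in either group, and of the 10 ganglion cell markers 3 were at 0 in control mice and 2 in Phase I ROP. Their part in the members' differences was not tested, and a larger share of a subtype and more RNA per cell cannot be told apart in summed cells.

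Scaling decided 2 calls. With total UMIs alone in place of TMM, the median log2 fold change over the genes tested moved from 0.02 to 0.38, and the split of calls in amacrine cells moved from 2038 higher and 2340 lower to 3818 higher and 1306 lower. Nhlh2 (log2 fold change 0.68, edgeR adjusted p = 0.0016) and Meis2 (0.76, edgeR adjusted p = 0.00582) were then called as well. Single mice decided others. The call of Pax6 was lost without Phase I ROP replicate 3, control replicate 1 or control replicate 2 (edgeR adjusted p = 0.0687, 0.0762 and 0.0988). That of Tfap2c was lost without Phase I ROP replicate 2 (adjusted p = 0.0645). Tfap2a and Tfap2b kept theirs in 11 of 17 alternatives each. Neurod2, Prdm13, Ebf3 and Ebf1 kept theirs in all 17.

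The difference was read within each amacrine cluster next, since the clusters use different members. In the Ppp1r17 cluster, 8 of the 9 members tested were higher in Phase I ROP, against 37.5% of the 5910 genes tested there being called in either direction. Tfap2b was at 147, 159 and 149.7 CPM in control mice and 393, 576 and 376 CPM in Phase I ROP (log2 fold change 1.63 ± 0.22, edgeR adjusted p = 4e-05). Neurod2 was at 62.1, 61.8 and 35.2 CPM and then 246, 275 and 194 CPM (2.23 ± 0.29, edgeR adjusted p = 3.8e-05). Pax6 was at 531, 415 and 506 CPM and then 778, 1026 and 984 CPM (1.02 ± 0.17, edgeR adjusted p = 0.000227). The groups did not overlap for any of the 3.

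In the same cluster, Prdm13 (log2 fold change 1.12 ± 0.21), Ebf3 (1.07 ± 0.20), Ebf1 (0.91 ± 0.18) and Nhlh2 (0.70 ± 0.17) were higher, with edgeR adjusted p between 0.000722 and 0.00428. Nhlh2 lost its call without control replicate 2 (0.52, edgeR adjusted p = 0.0511). Tfap2a was also called (0.74 ± 0.27, edgeR adjusted p = 0.039), a call lost in 8 alternatives. Tfap2c was at 42.7, 137 and 39.6 CPM in control mice and 83.0, 131 and 136 CPM in Phase I ROP, which overlapped (0.76 ± 0.41, edgeR adjusted p = 0.151). Control replicate 2 set this value, and without it the log2 fold change was 1.49 (adjusted p = 0.00781). Meis2 did not pass the filter. Different subclusters made up the cluster in the compared groups: 80.4% of the 312 control cells were in the subcluster led by Cxcr2, and 38.0% of the 389 Phase I ROP cells were in the Nfix and Nfib subcluster, 23.9% in the Mafa subcluster and 19.3% in the Cldn11 subcluster. Control cells in the latter 3 were 2.56%, 4.17% and 1.28%, so members were not compared between these groups within subclusters. Rod genes summed to 433 to 671 CPM in control mice and 1086 to 2457 CPM in Phase I ROP in this cluster.

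In the GABAergic-like cluster, 2 of the 7 members tested were called higher, with 29.9% of 8426 genes called in either direction. Tfap2c was at 53.6, 33.0 and 54.6 CPM in control mice and 66.8, 133 and 87.1 CPM in Phase I ROP (log2 fold change 1.03 ± 0.30, edgeR adjusted p = 0.0192). This call was lost without Phase I ROP replicate 2 (adjusted p = 0.135) or control replicate 2 (adjusted p = 0.0795). Nhlh2 was at 63.2, 44.0 and 102 CPM and then 132, 97.6 and 126 CPM (0.78 ± 0.27, edgeR adjusted p = 0.039), with overlap. It lost its call without any 1 of 5 mice (adjusted p = 0.0501 to 0.17) and with DESeq2 (adjusted p = 0.079). Tfap2b was at 1214, 1148 and 1240.1 CPM in control mice and 1436, 1491 and 1365 CPM in Phase I ROP, without overlap (0.26 ± 0.12, edgeR adjusted p = 0.126). With total UMIs alone as scaling, Tfap2b was called (0.57, edgeR adjusted p = 0.00398). Tfap2a was at 232, 288 and 141 CPM in control mice and 314, 321 and 319 CPM in Phase I ROP, without overlap (0.52 ± 0.20, edgeR adjusted p = 0.0579). It was not called, but 8 of 15 alternatives called it, with log2 fold changes between 0.53 and 0.84, and the value was 0.27 without control replicate 3. Meis2 was at 454, 315 and 474 CPM and then 443, 600.1 and 586 CPM (0.40 ± 0.17, edgeR adjusted p = 0.0796). Pax6 was not called with TMM (0.17 ± 0.14, edgeR adjusted p = 0.368). With total UMIs alone as scaling, Meis2 (0.72, edgeR adjusted p = 0.00573) and Pax6 (0.49, edgeR adjusted p = 0.0143) were called.

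Tfap2b differed by more in the Ppp1r17 cluster than in the GABAergic-like cluster. The difference between the 2 clusters' log2 fold changes, fitted with the mouse as a block, was 1.23 ± 0.18 (edgeR adjusted p = 0.00604). Only 0.15% of the 8673 genes in that fit were called. The same difference for Pax6 was 0.71 ± 0.17 (unadjusted p = 0.000375, edgeR adjusted p = 0.142), and none of the other 8 members was called.

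**Figure D4:**
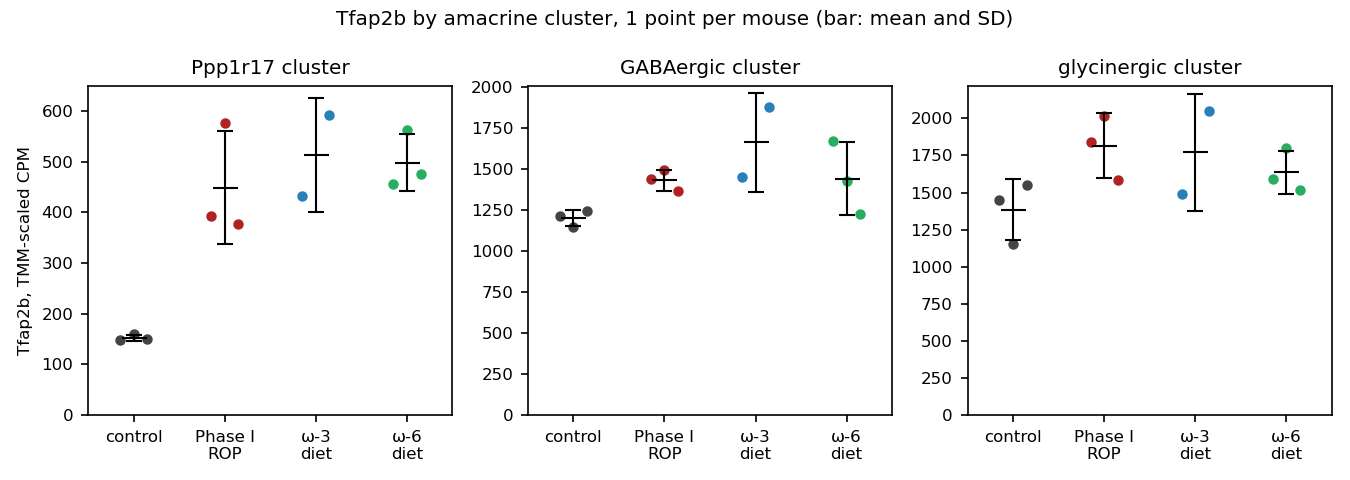
TMM-scaled CPM of Tfap2b in each mouse (points) by condition, in the GABAergic-like, Ppp1r17 and glycinergic-like amacrine clusters, with means as bars and SDs as error bars. In the Ppp1r17 cluster the control mice lie between 147 and 159 CPM and all other mice between 376 and 592 CPM, while in the GABAergic-like cluster the control mice lie between 1148 and 1240.1 CPM and the others between 1226 and 1875 CPM.

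In the glycinergic-like cluster, 2 of 4 members tested were called higher, with 23.5% of 1745 genes called in either direction. Neurod2 was at 106, 104 and 83.3 CPM in control mice and 274, 264 and 442 CPM in Phase I ROP, without overlap (log2 fold change 1.89 ± 0.38, edgeR adjusted p = 0.00086). The control values rested on 5 to 8 UMIs per mouse. Tfap2b was at 1450.5, 1156 and 1548 CPM and then 1843, 2018 and 1584 CPM (0.60 ± 0.21, edgeR adjusted p = 0.04). This call did not survive leaving out Phase I ROP replicate 2 or any control mouse (adjusted p = 0.0716 to 0.263). It was also lost with DESeq2 (adjusted p = 0.0709), with all 4 groups in 1 edgeR fit (adjusted p = 0.109) and without the filter on low counts (edgeR adjusted p = 0.355). Pax6 and Tfap2a were not called (edgeR adjusted p = 0.316 and 0.963). The starburst-like cluster had too few cells per mouse for a test.

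Müller glia, the class with the most Pax6 outside amacrine cells, were tested for comparison. Pax6 was at 333, 347 and 392 CPM in control mice and 394, 404 and 463 CPM in Phase I ROP, which did not overlap (log2 fold change 0.29 ± 0.18, edgeR adjusted p = 0.304). Of 2 members tested there, 0 were called, and 10.9% of 4869 genes were. Over all cells of a mouse, 4 of 10 members were called, with 48.1% of 15964 genes called. These were Neurod2 (log2 fold change 1.52 ± 0.27), Prdm13 (0.97 ± 0.19), Ebf3 (0.79 ± 0.17) and Meis2 (0.55 ± 0.16), with edgeR adjusted p between 0.000797 and 0.0149. Amacrine cells were 25.9%, 28.0% and 17.6% of the cells of control mice and 16.4%, 18.5% and 15.8% in Phase I ROP. The part of this share in the sums over all cells was not tested.

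**Figure D5:**
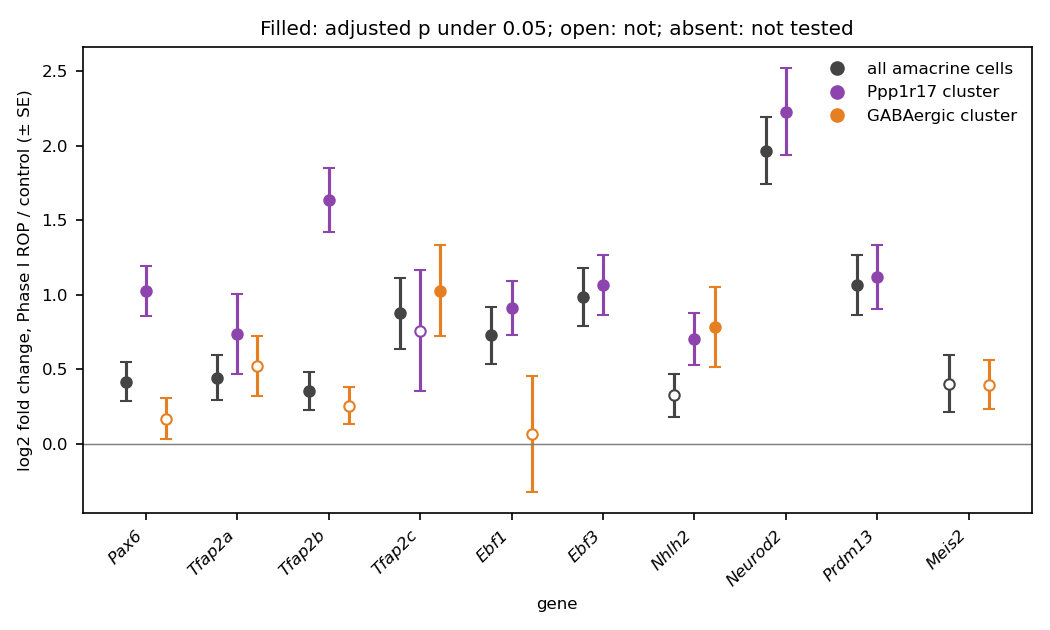
Log2 fold change of each transcription factor where tested, Phase I ROP over control, in all amacrine cells, the Ppp1r17 cluster and the GABAergic-like cluster, with 1 SE as error bars. Neurod2 is at 1.97 in all amacrine cells and 2.23 in the Ppp1r17 cluster, and Tfap2b is at 1.63 in the Ppp1r17 cluster and 0.26 in the GABAergic-like cluster.

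Of 30 other transcription factors of amacrine cells that were listed beside the members, 25 were tested in amacrine cells. Of these, 14 were higher in Phase I ROP and 0 lower (edgeR, adjusted p under 0.05 over all genes). In the same fit, 38.9% of all 11265 genes were called and 18.1% were called higher. The median log2 fold change of the 25 factors was 0.57, that of the 10 members 0.59 and that of all genes 0.02. The largest were Nr4a2, an orphan nuclear receptor that is also induced by activity (2.40 ± 0.20), Neurod1, a basic helix-loop-helix factor of photoreceptors and amacrine cells (1.87 ± 0.27), and Prox1, a homeodomain factor of AII amacrine and horizontal cells (1.35 ± 0.17). Nfix (1.31 ± 0.25), Six3 (1.23 ± 0.18) and Tcf4 (1.04 ± 0.16) followed, and all 6 had edgeR adjusted p of at most 0.00112. Among 13 paralogs of members, 8 were tested and 3 were higher: Neurod1, Prdm8 (0.99 ± 0.22) and Meis1 (0.91 ± 0.25). This count is set beside the 18.1% of all genes called higher and the 38.9% called in either direction. The AP-2 paralog Tfap2e was not called (0.14 ± 0.48, edgeR adjusted p = 0.842).

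Genes of amacrine transmitters went in both directions, in a fit that called 38.9% of all genes. Of 12 tested, 5 were higher in Phase I ROP, among them the glycine transporter gene Slc6a9 (log2 fold change 0.93 ± 0.17) and the vesicular inhibitory transmitter transporter gene Slc32a1 (0.66 ± 0.13). The 2 that were lower were Chat, which makes acetylcholine (fell by 1.45 ± 0.50 on the log2 scale, edgeR adjusted p = 0.0322), and the calcium-binding protein gene Calb2 (fell by 0.91 ± 0.18, edgeR adjusted p = 0.0016).

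The diets were compared within STZ-treated mice. In amacrine cells, 0 of 10 members were called between the ω-6 and the ω-3 diet, and 0% of 13114 genes were called by edgeR, with 1308 genes at an unadjusted p under 0.05 and 7 called by DESeq2. Ebf1 was at 199 and 223 CPM on the ω-3 diet and 166, 168 and 124 CPM on the ω-6 diet, without overlap (log2 fold change -0.45 ± 0.16, ω-6 over ω-3, unadjusted p = 0.0162, edgeR adjusted p = 0.476). Pax6 was at 637 and 665 CPM on the ω-3 diet and 765, 831 and 778 CPM on the ω-6 diet, also without overlap (0.29 ± 0.12, unadjusted p = 0.031, edgeR adjusted p = 0.481). The other 8 members had unadjusted p of 0.174 or more. In the Ppp1r17 cluster Pax6 was at 713 and 748 CPM on the ω-3 diet and 889, 965 and 1018 CPM on the ω-6 diet (0.37 ± 0.15, edgeR adjusted p = 0.807). Rod genes summed to 2399.7 to 2698 CPM on the ω-3 diet and 1075 to 1891 CPM on the ω-6 diet in amacrine cells.

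Both diets were also set beside the Phase I ROP mice. The labels name littermates only within control and Phase I ROP and within the diet groups, so that diet and litter cannot be told apart here. Against the ω-3 diet, 0 of 10 members were called in amacrine cells, with 0.0816% of 12252 genes called. Against the ω-6 diet, 0 of 10 members were called, with 0% of 11910 genes called by edgeR, 1560 genes at an unadjusted p under 0.05 and 37 called by DESeq2. Ebf3 had the smallest p. It was at 183, 187 and 294 CPM in Phase I ROP, 153 and 175 CPM on the ω-3 diet and 148, 169.6 and 112 CPM on the ω-6 diet. The fold change on the log2 scale was -0.61 ± 0.19 for the ω-6 diet (unadjusted p = 0.00449, edgeR adjusted p = 0.19) and -0.42 ± 0.19 for the ω-3 diet (unadjusted p = 0.0482, edgeR adjusted p = 0.652). Neurod2 was at 108 and 95.6 CPM on the ω-3 diet and 134, 123 and 105 CPM on the ω-6 diet, near its Phase I ROP values, with log2 fold changes against Phase I ROP of -0.0024 ± 0.17 and 0.23 ± 0.16.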

How the data were processed

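Retinal cells of 11 mice were measured with inDrop v3, with a low-level read filter, Rapmap assignment and UMI counting described by the study for mouse transcripts of GRCm38. The authors deposited tables of raw UMI counts, 1 row per gene and 1 column per cell. Cells with more than 300 genes were clustered with Seurat 5.3.0 (2000 variable genes, 75 principal components, resolution 0.2), and amacrine cells were reclustered (30 components, resolution 0.8). The 10 members took no part in variable genes, components or markers. Scrublet in scanpy 1.11.5 marked under 0.5% of cells as doublets, which is too few to be useful, so doublets were kept and an alternative left out the 5% of cells with the highest scores in each mouse (853 cells).

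Counts were summed per mouse and class where each mouse had at least 10 cells. The sums that entered the Phase I ROP test held 862625 to 1038683 UMIs per mouse in amacrine cells. Groups came from the sample labels, and the mouse was the replicate. Only the groups compared entered a fit of edgeR 4.0.16 (quasi-likelihood, TMM, default filter, Benjamini-Hochberg over all genes tested). The fit was tested on simulated data. The test in the Ppp1r17 cluster and the test of the difference between clusters were added after clustering. Class levels with an SD are means of CPM over the mice with at least 10 cells of the class, and medians and ranges over mice use the same values. The remaining class and subcluster levels are CPM of pooled UMIs, and the intervals are exact Poisson at 95%. Coordinates came from GENCODE M21 of GRCm38.

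All members are named. Of the lists of other regulators and paralogs, up to 6 called genes per direction are named by size, with up to 3 of the genes most like a member by Pearson's r. A few genes and 1 subcluster are not reported here. Subcluster names, list examples and marker values were chosen after their values were seen. The members and lists were chosen with earlier results of these data known. The alternatives tried were median-of-ratios scaling, DESeq2 1.42.0, no low-count filter, all 4 groups in 1 fit, mice of equal number as a block, thinned sums, each mouse left out, a 500-gene cell filter, members kept in the clustering and doublet removal. Total UMIs as scaling and removal of the subcluster led by rod genes were added after the data had been seen.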

Additional observations from a re-analysis of the deposited data

Results flagged for a closer look

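Tfap2b was flagged because its difference between Phase I ROP and control was itself different in 2 amacrine clusters. The log2 fold change was 1.63 ± 0.22 in the Ppp1r17 cluster and 0.26 ± 0.12 in the GABAergic-like cluster, and the difference between them was 1.23 ± 0.18 in the joint edgeR quasi-likelihood fit with the mouse as a block (Benjamini-Hochberg adjusted p = 0.00604, n = 3 mice a group). Over 10 alternatives, which included leaving out each mouse, it ranged from 1.14 to 1.40 with adjusted p from 0.0013 to 0.035. The test was added after the fits in each cluster had been seen. In the Ppp1r17 cluster 80.4% of control cells were in 1 subcluster that held 3.34% of the Phase I ROP cells of the cluster, and the part of subcluster make-up in the difference was not tested. No group of mice was large enough for a search for outlying samples.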

How the results depend on the processing

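The shares of the 10 members' UMIs that lay in amacrine cells moved by less than the SD over mice in all 30 alternatives (3 per member: a 500-gene cell filter, members kept in the clustering, highest doublet scores left out). Of 1052 alternative values of members' fold changes between conditions, 0 reversed a call, 40 lost one and 21 gained one. In amacrine cells, Phase I ROP over control, Tfap2a lost its call with DESeq2 (adjusted p = 0.0765), with thinned sums (edgeR adjusted p = 0.0561) and without Phase I ROP replicate 2 (0.129) or 3 (0.0576) or control replicate 1 (0.0638) or 3 (0.137). Tfap2b lost its call with DESeq2 (adjusted p = 0.0579) and without Phase I ROP replicate 2 (edgeR adjusted p = 0.152) or control replicate 1 (0.0799), 2 (0.114) or 3 (0.0748). Meis2 was called without Phase I ROP replicate 1 (0.57, edgeR adjusted p = 0.0299) and without the filter on low counts (0.43, adjusted p = 0.0392), and Nhlh2 without Phase I ROP replicate 2 (0.43, adjusted p = 0.0494). Ebf3 was called between the ω-6 diet and Phase I ROP without the filter (log2 fold change -0.60, edgeR adjusted p = 0.03). The cause was not tested.

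Counts of genes called moved as follows. Between ω-6 and ω-3, where edgeR called 0 genes in amacrine cells, DESeq2 called 7, no filter on low counts gave 124, total UMIs as scaling 1, and leaving out 1 mouse 0 to 5. In GABAergic-like cells the 0 became 11 with DESeq2, 85 without the filter, 2 with thinned sums, 1 without the highest doublet scores, 1 without the subcluster led by rod genes and 1 to 22 without 1 mouse. In glycinergic-like cells it became 1 with DESeq2, 4 without the filter, 2 with thinned sums and 0 to 27 without 1 mouse. In Müller glia it became 3 with DESeq2, 13 without the filter and 0 to 4 without 1 mouse, and over all cells 23 with DESeq2 and 0 to 2 without 1 mouse. In the Ppp1r17 cluster 1 gene became 14 without the filter, 2 with thinned sums, 3 without the highest doublet scores, 3 without the subcluster led by rod genes and 0 to 2 without 1 mouse. For ω-3 against Phase I ROP in amacrine cells, 10 became 3 with all 4 groups in 1 fit, 106 without the filter, 2 without the highest doublet scores, 0 without the subcluster led by rod genes and 0 to 19 without 1 mouse. For ω-6 against Phase I ROP, 0 became 37 with DESeq2, 269 without the filter and 0 to 139 without 1 mouse, the 139 without ω-6 replicate 2. For Phase I ROP against control, DESeq2 gave 200 in place of 410 in glycinergic-like cells (239 to 416 without 1 mouse) and 319 in place of 532 in Müller glia (248 to 433). The 13 genes whose difference changed between clusters became 2 to 21 without 1 mouse.

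Replicate numbers of the titles did not pair the mice, and the sample descriptions number them otherwise, with no number shared between control and Phase I ROP or between the diets. Same-numbered Phase I ROP and control mice deviated together in amacrine cells with r = -0.000145, 0.0306 and 0.0952. With the number as a replicate block, Tfap2b in amacrine cells lost its call (log2 fold change 0.35, edgeR adjusted p = 0.0571) and Tfap2a in GABAergic-like cells gained one (0.56, adjusted p = 0.0485), 1 of 8 alternatives that called it. The block gave 4227 genes called in amacrine cells in place of 4378. Between ω-6 and ω-3 it gave 65 genes in amacrine cells, 7 in GABAergic-like cells, 5 in glycinergic-like cells, 6 in Müller glia, 60 over all cells and 6 in the Ppp1r17 cluster. It gave 18 for ω-3 and 6 for ω-6 against Phase I ROP.

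Depth limits the smaller classes most. Glycinergic-like sums held 68265 to 120052 UMIs per mouse in the Phase I ROP comparison, where 4 members passed the filter and were tested. In horizontal (30 cells in all) and ganglion cells (96) mice fell under 10 cells, so no test was made.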
